A study of Mus musculus with 2 samples.

Results

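The STAT transcription factors and their SOCS feedback inhibitors were followed in mouse back skin through 9 genes, the 6 STAT genes Stat2, Stat3, Stat4, Stat5a, Stat5b and Stat6 and the 3 SOCS genes Socs1, Socs2 and Socs3. They were taken as the non-control spots whose gene name in the scanner files is one of these symbols, which gave 15 of the 41165 probes on the array and 33 spots. All 9 genes were among the 16610 genes measured on both arrays, that is, with at least 1 probe well above background on both. The FGF18 skin came from C3H/HeN males, 61 days old, whose back hair had been plucked 5 days earlier to start anagen (hair growth), and which had received 1 µg of FGF18 protein under the skin on day 4. The control skin came from C3H/HeN males of the same age and depilation that had received phosphate-buffered saline (PBS) in place of FGF18. Full-thickness skin was taken 24 h after injection, and 1 single-colour Agilent array was hybridised per group ("with FGF18" and "with PBS" below). The labels name 3 mice without saying whether that is the number per group, and the design text states that RNA was pooled within each group while the extraction text has the mice extracted separately. The PBS sample is titled telogen (hair rest), but its other labels place it in anagen. With 1 array per group, no difference below has a replicate check and no p-value is given.

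STAT proteins are latent transcription factors of the cytoplasm. A cytokine bound to its receptor activates the receptor's Janus kinases, these phosphorylate a STAT on a tyrosine, and the STAT pairs through its SH2 domain, enters the nucleus and binds DNA. SOCS proteins are made in response to STAT activity and close the loop, since they bind the activated receptor or kinase and, through their SOCS box, bring it to a ubiquitin ligase. In mouse skin Stat3 in keratinocytes is known to be needed for hair follicles to enter a new growth phase after the first ones and for wounds to close. Array values report transcripts and not the phosphorylation that activates a STAT.

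The promoters of 4 members are shown because they carry motifs of the kind that STAT complexes bind, and because Stat2 and Stat4, the members with the highest ratios below, are among them. Promoters of 8 of the 9 genes, 11 in all, were found in a RefSeq table (build GRCm38.p6, 250 bases before to 50 after a gene's start); Socs2 has no entry. The motifs searched were TTCNNNGAA, the palindrome bound by paired STATs, and GAAANNGAAA on either strand (read as TTTCNNTTTC on the other), the core of the element bound by the interferon-activated complex of STAT2 and IRF9. The 2 motifs did not overlap in these promoters. Capitals mark the matches, and each sequence runs 5′ to 3′ on the gene's strand.
Stat2, chr10:128270248-128270547, plus strand: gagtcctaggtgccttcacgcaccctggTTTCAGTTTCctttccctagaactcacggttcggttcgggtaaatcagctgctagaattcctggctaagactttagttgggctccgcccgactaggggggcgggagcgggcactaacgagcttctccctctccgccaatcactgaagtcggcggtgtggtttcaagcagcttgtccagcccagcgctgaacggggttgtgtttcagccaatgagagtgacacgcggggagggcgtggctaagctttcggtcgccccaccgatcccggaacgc
Stat4, chr1:52007990-52008289, plus strand: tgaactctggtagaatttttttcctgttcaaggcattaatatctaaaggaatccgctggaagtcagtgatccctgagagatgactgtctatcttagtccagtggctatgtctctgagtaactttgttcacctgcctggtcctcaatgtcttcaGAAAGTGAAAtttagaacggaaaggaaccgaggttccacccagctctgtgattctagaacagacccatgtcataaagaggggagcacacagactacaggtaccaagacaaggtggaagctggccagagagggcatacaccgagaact
Socs1, chr16:10785487-10785786, minus strand: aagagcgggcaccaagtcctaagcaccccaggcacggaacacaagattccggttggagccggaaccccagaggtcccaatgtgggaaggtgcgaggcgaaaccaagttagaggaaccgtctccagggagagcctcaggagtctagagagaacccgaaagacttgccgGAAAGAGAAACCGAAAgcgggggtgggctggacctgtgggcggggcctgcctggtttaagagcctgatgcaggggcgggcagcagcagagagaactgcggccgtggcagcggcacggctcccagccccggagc
Socs3, chr11:117969317-117969616, minus strand: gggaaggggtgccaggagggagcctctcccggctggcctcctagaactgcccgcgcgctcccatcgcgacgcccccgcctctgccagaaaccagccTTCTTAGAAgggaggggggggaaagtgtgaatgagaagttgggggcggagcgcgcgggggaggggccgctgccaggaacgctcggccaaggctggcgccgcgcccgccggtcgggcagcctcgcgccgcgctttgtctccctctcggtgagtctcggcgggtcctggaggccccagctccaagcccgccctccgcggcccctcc

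GAAANNGAAA was found in Stat2, in 1 of the 2 promoters of Stat4 and in Socs1, where 2 matches overlap by 4 bases, so 3 of the 11 promoters held it, against 3.44% of all 32851 promoters in the table. The match of Stat2 began 222 bases before the start, that of Stat4 97 bases before it, and those of Socs1 83 and 77 bases before it. TTCNNNGAA was found in Socs3, 154 bases before the start, and in 1 of the 11 promoters in all, against 8.30% of all promoters. A match describes these letters and not a bound site.

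No member differed by 2-fold or more between the arrays. Over the whole array, 2.53% of 16610 genes did so, 256 of them (1.54%) being higher with FGF18 and 164 (0.987%) lower. At 1.5-fold, Stat2 and Stat4 were higher and Stat3 was lower, so 3 of the 9 members passed, against 8.61% of all genes (3.79% higher and 4.82% lower). Ratios here are log2 of the processed signal after each array was scaled to its 75th percentile, FGF18 minus PBS. The median over the 9 members was 0.09 and that over all genes -0.07, which is the level against which a ratio should be read. The members ranged from -0.77 to 0.70, and the central 95% of all genes lay between -0.75 and 0.73.

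Measurement error was taken from 2 sources. The scanner software gives each signal an error, which was 10% to 18.7% of the signal for the 13 member probes well above background and came to 0.20 to 0.33 on the log2 scale for a ratio if the errors on both arrays are independent. Probes printed on many spots gave a smaller error, with a typical (median) SD per spot on the log2 scale of 0.13 (44 dim probes), 0.048 (56 of middle signal) and 0.028 (79 bright ones). Neither covers the spread between mice. Of the 13 probes, 8 had a ratio larger than the software's error and 4 a ratio larger than 2 such errors. Those 4 were the probes of Stat2 and Stat4 and both probes of Stat3. Measured from the median of all genes, 4 probes also passed 2 such errors. The shares of all probes past these limits were not computed, so the counts do not set the members apart. The 2 probes not well above background on either array, 1 of Stat5b and 1 of Stat6, are given with their genes.

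**Figure D1:**
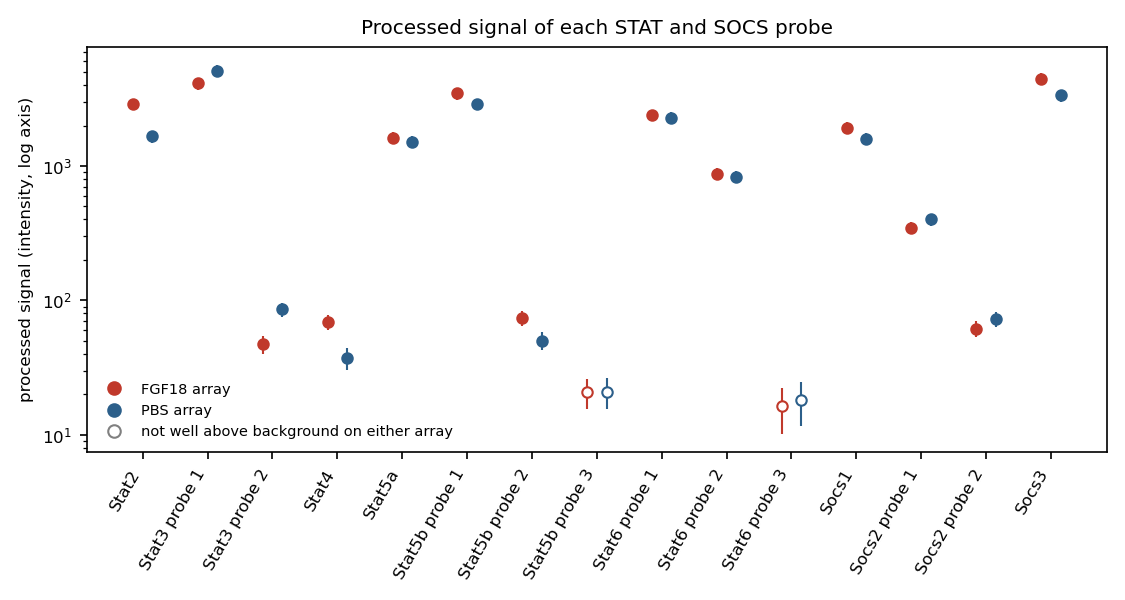
Processed signal (intensity, log axis) of the 15 STAT and SOCS probes on the FGF18 array (red, left of each pair) and the PBS array (blue), with bars for the error given by the scanner software and open points for probes not well above background. Signals are unscaled and span 16.3 for the dimmest Stat6 probe to 5097 for the main Stat3 probe. Stat2 is at 2890 with FGF18 against 1660 with PBS.

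Stat2, the STAT that with IRF9 carries the type I and type III interferon signal, was higher on the FGF18 array. In whole skin, a change in the number of cells of a type and a change in RNA per cell cannot be told apart, for this and every ratio here. The 1 probe of Stat2 had a signal of 2890 ± 289 with FGF18 and 1660 ± 166 with PBS (software error). The scaled ratio was 1.53-fold (log2 0.62), which 3.43% of all genes reached or passed. Among the 6001 genes of the bright signal class, 1.55% did. The ratio of Stat2 lay between 0.60 and 0.80 under the 12 other processing choices except scaling to spike-in transcripts, which put it at 1.42. With 1 bright probe, the other filters and probe summaries could not change it.

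Stat3, which carries signals of the interleukin-6 family and other cytokines, was lower on the FGF18 array on both of its probes, though its mean stood at 0.04 after spike-in scaling. The main probe, matched in the files to a RefSeq transcript of Stat3, was printed on 10 spots. Its spots had signals of 4000 to 4220 (median 4110) with FGF18 and 4990 to 5220 (median 5095) with PBS. All 10 FGF18 spots lay below the lowest PBS spot, and the log2 ratio of the spots was -0.49 ± 0.020 (SD, n = 10 spots of 1 array pair). The other probe, matched to an Ensembl transcript and a cDNA clone, was dim, with 47.0 ± 7.40 with FGF18 and 85.8 ± 10.4 with PBS, a ratio of -1.05. It was the only member probe past 2-fold. In the coordinates of the files, whose build is not named, it lay 3.08 kb from the main probe and 258 bases from the probe of the neighbouring gene Stat5a on the opposite strand. The probes thus agreed in direction and differed by 0.56 in size, a spread reached by 15.1% of the 5737 genes with several measured probes. The mean of both was -0.77, or 1.71-fold lower, and with the brightest probe alone it was -0.49, under 1.5-fold. At the mean of the probes, 2.36% of all genes were as low or lower.

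**Figure D2:**
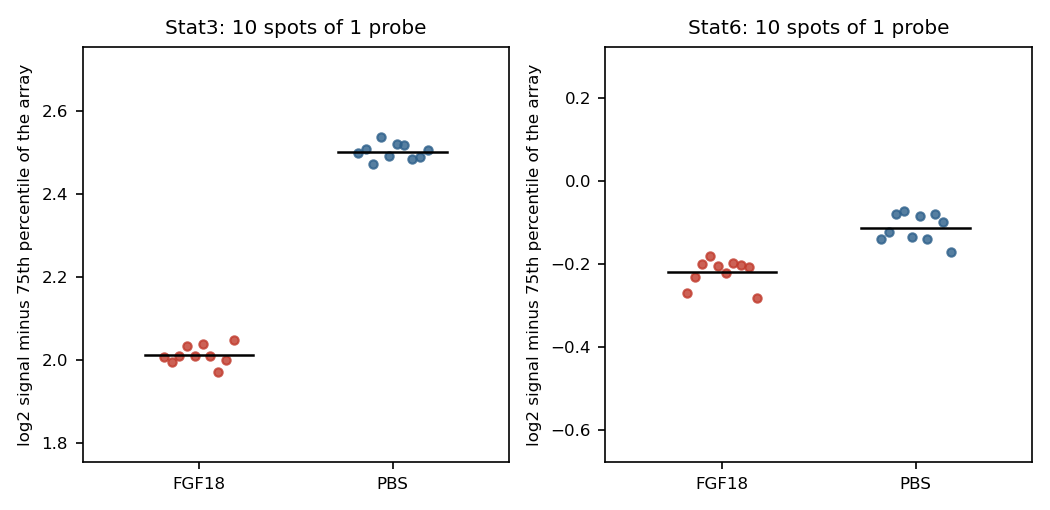
Log2 signal minus the 75th percentile of its array for the 10 spots of the Stat3 probe (left panel) and of the Stat6 probe (right panel), FGF18 array in red and PBS array in blue, with a line at the mean. Both panels span 1 log2 unit. The Stat3 spots are separated by 0.49 between the arrays and the Stat6 spots by 0.11.

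Stat4, which carries interleukin-12 signals in T cells and natural killer cells, was higher on the FGF18 array at a low signal. Its 1 probe read 69.0 ± 8.94 with FGF18 and 37.5 ± 7.03 with PBS. The lowest signal called well above background was 23.3 with FGF18 and 24.2 with PBS. The ratio was 1.62-fold (log2 0.70), the highest of the 9 members, and 2.72% of all genes reached it. Among the 4666 genes of the dim class 4.89% did. It depended on the background correction, since normexp with an offset of 50 gave 0.12. Of 10 marker genes of T cells and natural killer cells, 9 were on the array, 7 were measured on both arrays and 1, Ncr1, was above background with FGF18 alone (at least 3.90-fold higher). Cd8a was not well above background on either. The summed signal of the 7 measured genes, before scaling, was 1441 with FGF18 and 1176 with PBS, 1.08 times higher after scaling. Their median ratio was -0.29, however, and only 2 of the 7 lay above the median of all genes. Klrk1 and Nkg7, which natural killer and cytotoxic T cells express, were at 1.41 and 0.83, whereas the T cell receptor genes Cd3d, Cd3e and Cd3g lay between -0.49 and -0.29 and Cd4 at -0.68. The 4 pan-leukocyte genes had a summed signal of 6880 with FGF18 and 4252 with PBS, 1.43 times higher after scaling. The part of these cells in the Stat4 value was not tested.

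Stat5a and Stat5b, near-identical factors for prolactin, growth hormone and common gamma chain cytokines, differed little between the arrays. Their transcripts are alike, and whether a probe of one also binds the other was not checked, as probe sequences were not used here. Stat5a read 1630 ± 163 with FGF18 and 1510 ± 151 with PBS, a scaled ratio of -0.07 that lay at the median of all genes and changed sign with the scaling (0.11 without any). The brighter Stat5b probe read 3470 ± 347 with FGF18 and 2890 ± 289 with PBS, a ratio of 0.08, within the software's error of 0.20. The dimmer one, 6.50 kb away in the coordinates of the files, read 73.9 ± 9.25 with FGF18 and 50.2 ± 7.65 with PBS, a ratio of 0.38. The remaining probe, on a cDNA clone that the files call unclassifiable, was not well above background, at 20.8 with FGF18 and 20.9 with PBS. The 2 measured probes agreed in direction, and their mean was 0.23.

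Stat6, which carries interleukin-4 and interleukin-13 signals, gave the closest agreement between probes. The 10 spots of its first probe had signals of 838 to 899 (median 884) with FGF18 and 798 to 855 (median 832) with PBS, which overlap before scaling. After scaling, the highest FGF18 spot (-0.182) lay just below the lowest PBS spot (-0.172). The ratio after scaling was -0.11 ± 0.025 (SD, n = 10 spots). The second probe, 293 bases away, read 2390 ± 239 with FGF18 and 2280 ± 228 with PBS, also a ratio of -0.11. The remaining probe, 13.3 kb away, was not well above background, at 16.3 with FGF18 and 18.1 with PBS. The mean of -0.11 was 0.04 under the median of all genes, and it was 0.07 with no scaling at all, so Stat6 had no direction that held across scalings.

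Socs1, which binds Janus kinases directly and is best known for limiting interferon signals, read 1930 ± 193 with FGF18 and 1600 ± 160 with PBS. The scaled ratio was 0.09, within the software's error of 0.20. Its promoter is the one with 2 overlapping matches to GAAANNGAAA shown above. Socs3, which limits interleukin-6 family signals at their shared receptor chain, read 4440 ± 444 with FGF18 and 3350 ± 335 with PBS. Its ratio was 0.22, or 1.17-fold, just past the software's error of 0.20, and 13.6% of all genes reached it. Another probe, outside the rule because the files name it only by an expressed-sequence cluster, TC1571892, and looked up after the values of Socs3 were seen, is described in the files as Socs3. It read 6650 ± 665 with FGF18 and 8010 ± 801 with PBS, a ratio of -0.45 in the opposite direction. In the coordinates of the files it lay 1118 bases from the Socs3 probe and in the opposite orientation, so it is not counted as a measure of Socs3.

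Socs2, known for limiting growth hormone signals, was lower on both probes, though spike-in scaling put its mean at 0.40. The first read 347 ± 35.1 with FGF18 and 400.0 ± 40.4 with PBS, a ratio of -0.39. The second, on a cDNA clone 24.3 kb away, read 61.5 ± 8.28 with FGF18 and 72.9 ± 9.17 with PBS, a ratio of -0.43. The probes differed by 0.04, and 88.1% of genes with several probes had a spread at least as wide. The mean was -0.41, or 1.33-fold lower, and 10.2% of all genes were as low or lower.

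**Figure D3:**
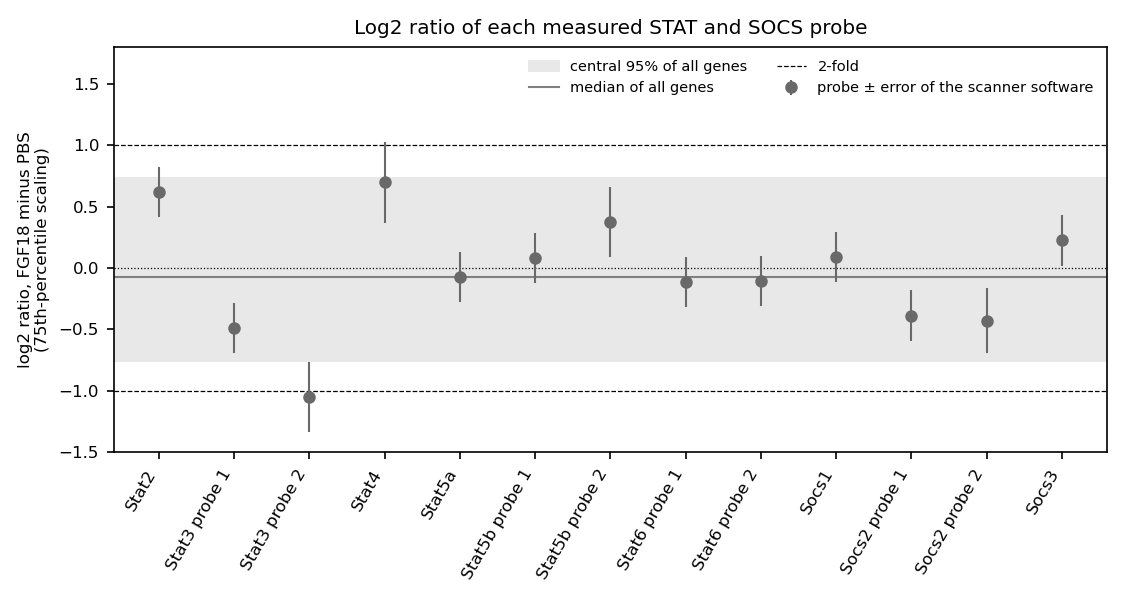
Scaled log2 ratio, FGF18 minus PBS, of the 13 STAT and SOCS probes well above background, with bars for the software's error, a grey band for the central 95% of all genes (-0.75 to 0.73), a grey line at their median and dashed lines at 2-fold. The second Stat3 probe, at -1.05, is the only point beyond a dashed line.

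The direction of small ratios turned on the scaling. Of the 9 members, 5 were above 0 and 4 below with the 75th percentile, and 7 were above 0 with no scaling, where the median of all genes was 0.11. Spike-in scaling added 0.81 to every ratio and put all 9 above 0. Relative to the median of all genes, which removes a common shift, Stat2, Stat5b, Socs1 and Socs3 were higher and Stat3, Stat6 and Socs2 lower under all 14 settings, and Stat4 was higher under the 13 that measured it. Stat5a was above that median in 3 settings and below it in 11. Stat6 was at most 0.06 below that median. Scaling to the 75th percentile of all or of detected probes, to the median or to spike-ins, and no scaling, differ only by a common shift. Relative to the median of all genes they give the same value by construction, so their agreement is not separate support.

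**Figure D4:**
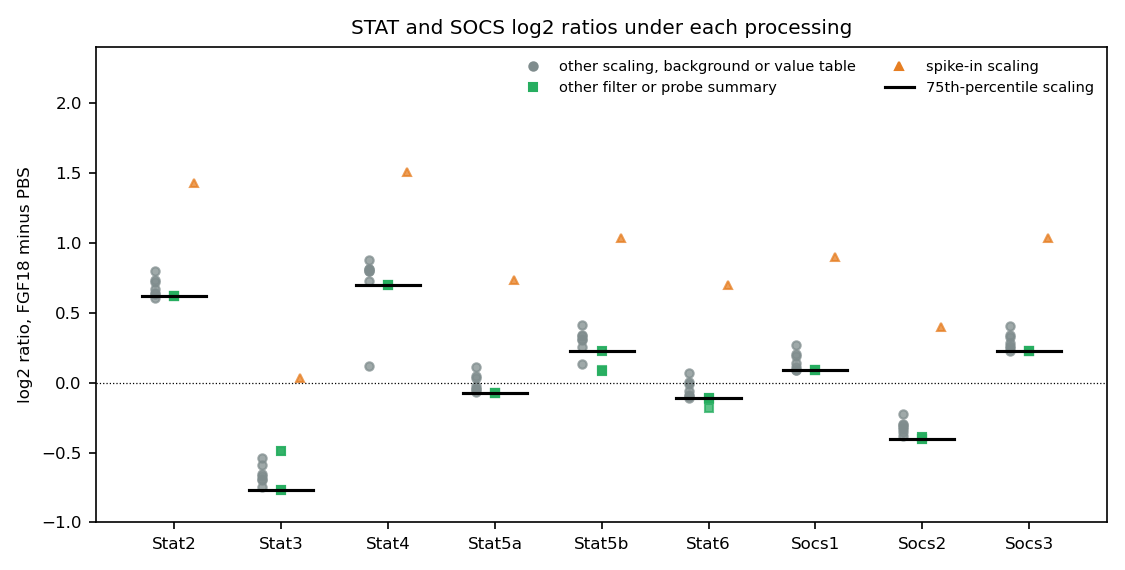
Log2 ratio, FGF18 minus PBS, of each STAT and SOCS gene with 75th-percentile scaling (black line), other scalings, background correction or the authors' value table (grey), other filters and probe summaries (green) and spike-in scaling (orange). Stat3 stands at -0.77 and Stat2 and Stat4 stand at 0.62 and 0.70 with 75th-percentile scaling, and spike-in scaling lies 0.81 above for every gene.

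The genes that act upstream of the STATs were described through lists, all at 75th-percentile scaling. Of all genes, 8.61% were past 1.5-fold either way. The 4 Janus kinases had a median of 0.15 with 0 past 1.5-fold. Tyk2, the kinase of interferon and interleukin-12 receptors, was at 0.23, Jak1 at 0.17 as the mean of probes from -0.21 to 0.55, Jak2 at 0.13 and Jak3 at 0.11. Among 6 interferon receptor genes (median 0.24, 0 past 1.5-fold), Ifnar2 was at 0.43 and Ifnar1 at 0.36, the chains of the type I receptor, and Ifngr1 and Ifngr2 of the type II receptor were at -0.07 and -0.19. Of 7 interferon genes on the array, Ifnb1 and Ifng were above background with FGF18 alone. Ifnb1 read 75.9 with FGF18 and 6.47 with PBS (at least 2.77-fold higher). Ifng read 87.2 with FGF18 and 21.2 with PBS (at least 3.18-fold higher). Ifnl3 was measured on both, at -0.46, and the other 4 were not well above background on either.

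Ligands in a list of the interleukin-6 family and related cytokines were faint or level, and Lif and Cntf were not found on the array. Il6, Osm, Csf3 and Il31 were not well above background on either array, and the 5 measured ligands lay between -0.19 (Il11) and 0.12 (Lep). Of their 10 receptor genes (median -0.14), Csf3r, the receptor of granulocyte colony-stimulating factor, was highest at 0.89 and Cntfr lowest at -0.98. The shared chain Il6st was at -0.14 and Osmr at 0.20. Receptors of common gamma chain and type 2 cytokines had a median of 0.34 over 9 genes, from -0.44 (Il13ra2) to 1.03 (Il2rb), with Il4ra at 0.17. Receptors of the interleukin-12 and interleukin-10 families had a median of 0.60 over 4 genes, from -0.28 (Il20rb) to 1.01 (Il10ra). Il2rb and Il10ra were the 2 receptor genes past 2-fold among those measured on both arrays, where 2.53% of all genes passed either way. Il2ra, a chain of the interleukin-2 receptor, was above background with FGF18 alone, at 62.8 with FGF18 and 20.2 with PBS (at least 2.29-fold higher). The 7 measured receptors of the hormone type ranged from -0.31 (Epor) to 0.69 (Il3ra) with a median of -0.08. Il15 was the highest of 3 ligands of the common gamma chain and type 2 list measured on both arrays, at 0.65, and Tslp the lowest, at -0.08. Il12a, at 0.02, was the only ligand of the interleukin-12 and interleukin-10 list measured on both arrays. Il13 and Il10 were above background with FGF18 alone (at least 1.26-fold and 1.30-fold higher), and Il19 with PBS alone (at least 1.85-fold lower with FGF18).

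Other inhibitors of the pathway had a median of 0.01 over 15 measured genes, with 1 at least 2-fold higher and 0 lower. Over all genes the shares were 1.54% and 0.987%. The list holds the remaining SOCS genes, of which Socs4, Socs5 and Socs6 were at 0.04, 0.09 and 0.01. Socs7 was above background with FGF18 alone, at 26.9 with FGF18 and 20.3 with PBS. These signals were too near the floor to show a difference. The gene past 2-fold was Usp18, which blocks the type I interferon receptor and is itself induced by interferon, at 2.14. The lowest was Ptpn11, a phosphatase, at -0.55. Cish, the SOCS relative induced by STAT5, was at -0.27, and the phosphatases Ptpn2 and Ptpn6 were at -0.12 and 0.34. Socs3 and Socs1, at 0.22 and 0.09, lay below Usp18 on the same arrays.

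Known targets were set beside each STAT, from lists that share some genes and hold 2 members, Socs2 and Socs3. Of 18 targets of the complex of STAT2 and IRF9, 17 were at least 2-fold higher and 0 lower, with a median of 2.41. Rsad2 was highest at 3.41, and the lowest was Irf9, the partner of STAT2, at 0.76, close to the 0.62 of Stat2 itself. Of 13 measured interferon gamma targets, 6 were at least 2-fold higher and 0 lower (median 0.80), from Ciita at -0.06 to Igtp at 3.23. STAT3 targets had a median of -0.07 over 16 genes, equal to that of all genes, with 2 at least 2-fold higher and 0 lower. Saa3, an acute-phase protein, led at 3.65, and Fosl2 was lowest at -0.38. Lcn2 was above background with FGF18 alone, at least 1.51-fold higher. Of 5 measured STAT4 targets, 2 were at least 2-fold higher, led by Gzmb at 4.44, and Hlx was lowest at -0.30. Ifng and Il18rap, of the same list, were above background with FGF18 alone (at least 3.18-fold and 1.25-fold higher). STAT5 targets had a median of -0.16 over 9 genes, from -0.41 for Socs2 itself to 0.15 for Igfals, with 0 of these 9 past 1.5-fold. Il2ra, also in that list, was the gene above background with FGF18 alone (at least 2.29-fold higher). STAT6 targets had a median of -0.35 over 11 genes, with 2 at least 2-fold lower and 1 higher, from Arg1 at -1.36 to Ccl11 at 1.30. The list of hair-cycle regulators, in which 9 genes were measured, had a median of -0.39, from Tgfb2 at -0.82 to Ngfr at 0.22. A list's name says what its genes are known to respond to, and these genes also respond to other factors.

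**Figure D5:**
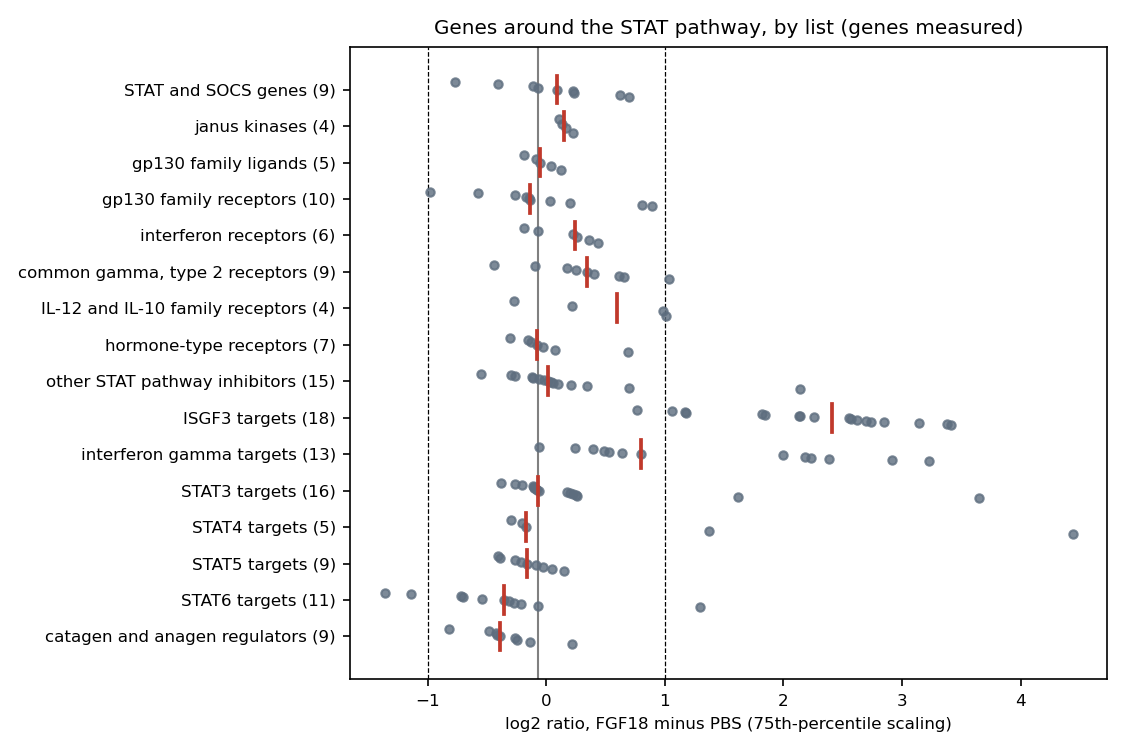
Scaled log2 ratio, FGF18 minus PBS, of each measured gene (points) in 16 lists around the STAT pathway, with the list median in red, the median of all genes as a grey line and dashed lines at 2-fold. The STAT and SOCS genes lie between -0.77 and 0.70, and the targets of the complex of STAT2 and IRF9 lie between 0.76 and 3.41.

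The tissue label fitted the markers of skin. Keratinocyte genes (5 of 5), inner root sheath genes (4 of 4), fibroblast genes (6 of 6) and adipocyte genes (4 of 4) were measured on both arrays. Keratinocyte genes had a summed signal, before scaling, of 534165 with FGF18 and 520818 with PBS, 0.90 times as high after scaling. Their median ratio was -0.22. Fibroblast genes had a median of -0.47. Inner root sheath genes (median -0.77) had unscaled sums of 147080 with FGF18 and 211852 with PBS, 0.61 times as high after scaling. Their part in the Stat3 value was not tested.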

How the data were processed

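Images were read, per the file headers, with Agilent Feature Extraction 9.5.3.1. The deposited intensity values used were the processed signal (after background subtraction and detrending, per the file headers), its software error, and the mean and background signals; other deposited columns, per the file headers, were flags and spot types. The series value table held the authors' values as a ratio, the processed signal over its array's median (83.8 for FGF18 and 80.0 for PBS), departing from it by at most 0.0078 (log2). Whether the authors scaled the arrays further is not given in the sources used.

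Of 43379 non-control spots, 151 flagged as outliers on either array were left out. The 75th percentile of log2 signal (1020 for FGF18 and 899 for PBS) was subtracted, probes were averaged over their spots, and those with a share of spots well above background of 0.5 or more counted as measured (62.4% of spots were so flagged for FGF18 and 61.5% for PBS, and 0 were saturated). Log2 ratios of a gene's measured probes were averaged. Where only 1 array measured a gene, its dim side was set at the higher of its own signal and the floor (23.3 for FGF18 and 24.2 for PBS), giving "at least" a fold. Gene names other than the members' were updated through RefSeq (GRCm38.p6). The script was tested on simulated data with planted changes larger than any member's ratio. That test does not cover ratios as small as the members'. Tools were Python 3.11.15, limma 3.58.1 and R 4.3.3.

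No test was made, since each group has 1 array. Members and lists were chosen with earlier results of these data known. The rule named all members, the Janus kinases, 12 fixed pathway genes, and the highest and lowest measured gene of each list; cell type markers beside Stat4 (Klrk1, Nkg7, Cd3d, Cd3e, Cd3g, Cd4, Cd8a and Ncr1), TC1571892, Socs4, Socs5, Socs6, Il6, Osm, Csf3, Il31 and genes of 1 array were named after their values were seen.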

Additional observations from a re-analysis of the deposited data

How the results depend on the processing

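The alternatives were scaling to the median, none, quantile, loess, the 75th percentile of detected probes or 7 spike-in probes, normexp background correction, the authors' value table, other filters on dim signals, the brightest or median probe, and a threshold of 1.5. Members at least 2-fold apart numbered 0 throughout except 4 with spike-in scaling and 3 at 1.5-fold. Genes at least 2-fold apart numbered 420, but 2638 with spike-in scaling, 235 with normexp, 999 with probes above background on at least 1 array, 1687 without a filter, 251 with signals over 100 and 1430 at 1.5-fold. The members' median of 0.09 was 0.19 with median scaling, 0.27 without scaling, 0.14 with loess, 0.89 with spike-in scaling, 0.21 with the series value table and 0.0053 with signals over 100, which leaves out Stat4 and so has 8 members. The median of all genes, -0.07 as reported, was 0.03, 0.11, -0.0034, 0.74, 0.04 and -0.06 under these settings in the same order. The cause of the spike-in shift was not tested. Stat3 lay between -0.77 and -0.49 in the alternatives other than spike-in scaling, and Stat4 between 0.12 and 0.88. No paired analysis was possible because each group has 1 array, and for the same reason no array could be left out. Signals near the floor limit what Stat4 and the second probes of Stat3, Stat5b and Socs2 can show.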
